A study of Mus musculus with 45 samples.

Results

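The genes described here are the mouse Zfp zinc finger genes: genes whose symbol is Zfp followed by digits only, leaving out Zfp36, which encodes an RNA-binding protein of another family. They were chosen by symbol and by level, and a member had to reach at least 5 CPM, counts scaled to a common total of counts assigned to genes, in at least 2 of the 45 libraries. Of 37991 genes counted, 354 had such a symbol and 242 of those met the level rule. At 5 CPM or more in every library were 139 of the members, and 17 reached that level in 10 libraries or fewer. The members nearest the threshold on the inside were Zfp974, whose second-highest library held 5.07 CPM, and Zfp235, with 5.14 CPM. Just outside it lay Zfp992, with 5.00 CPM after rounding, and Zfp59, with 4.98 CPM.

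The RNA came from primary mouse embryonic fibroblasts of strain C57BL/6, connective tissue cells grown out of embryos. The labels give 1 WT replicate and 2 p53KO replicates, the latter here called KO-1 and KO-2. Each was treated as 1 line across all stimuli and times, which the labels do not state. The p53 deficiency served to lengthen the life of the primary cells in culture. All cells were starved of serum overnight and then given IL-1b at 10 ng/ml, TNF at 10 ng/ml or LPS at 100 ng/ml for 0, 0.5, 1, 3 or 8 h. IL-1b and TNF are inflammatory cytokines, and LPS is a bacterial cell wall component sensed by innate immune receptors. Each stimulus had its own 0 h libraries, which makes 2 p53KO libraries and 1 WT library for each stimulus and time, 30 p53KO and 15 WT libraries in all. Because WT is 1 line, a difference between genotypes cannot be told apart from a difference between lines. Nothing in the sources used here says whether the libraries of a line came from separate cultures, so the p-values measure the spread between these libraries. Only p53KO groups held 2 libraries, so the 15 residual degrees of freedom of the fit all came from p53KO. The SE and p-values of WT changes and of differences between genotypes thus rest on the spread between p53KO libraries, taken to hold in WT too.

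Zinc finger proteins of the C2H2 type read DNA with a row of short folded repeats, each held together by a zinc ion. Many carry a KRAB domain at their start, which binds the corepressor Trim28 and through it brings in histone H3 lysine 9 methylation, and these KRAB proteins are best known for silencing transposable elements and imprinted genes. Their genes lie in large tandem clusters of near-identical copies, and the messages of many of them are short-lived, so that their levels fall soon after synthesis stops. SCAN is another start domain, which lets zinc finger proteins pair with each other.

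By translation of the annotated coding sequences, 115 members held a KRAB A box and 8 a SCAN domain, and Zfp469 had no annotated coding sequence. Of the 241 members with a coding sequence, 198 held 5 or more C2H2 fingers, 7 held none, and the median was 10 and the highest number 33. Chromosome 7 carried 60 members and chromosome 17 carried 29.

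The counts assigned to genes came to between 5619870 and 15355994 per library, with a median of 9347770, and the members took 0.429 to 0.645% of them. Reads that aligned to more than 1 place made up 18.8 to 23.6% of each library's deposited counts, so members with near-identical copies may have lost or shared reads. Trp53, the gene named in the labels, was at 158 to 293 CPM in WT and at 50.9 to 86.5 CPM in the p53KO libraries. All 11 fibroblast markers were expressed and summed to between 32737 and 42668 CPM. The marker sums ran over every listed gene found in the counts, tested or not. Epithelial sums, with 4 of 5 markers tested, were 5.83 to 13 CPM in WT and 26.8 to 50.6 CPM in p53KO. For the 2 of 4 muscle markers tested, the sums were 46.7 to 81.1 CPM in WT and 86.1 to 164 CPM in p53KO, and the part of such cells in the genotype differences below was not tested. Libraries also differed by transcript length, measured as the Spearman rho, across genes, between transcript length and a library's deviation from the others of its line and time. The 4 most negative values were -0.48, -0.56 and -0.75 in the IL-1b 0.5 h libraries of WT, KO-1 and KO-2 and -0.66 in the WT IL-1b 3 h library, where long transcripts were low. The TNF libraries of the same lines and times had positive values, 0.43, 0.59 and 0.69 at 0.5 h and 0.57 in WT at 3 h, and since each value is relative to the other libraries, the 2 signs are not independent. In the 9 libraries at 1 h it lay between -0.32 and 0.48. The WT 3 h counts, the differences in change at 3 h and the genotype levels are given below also without the IL-1b libraries among these 4, and the 0.5 h counts with the trend on length removed. The other WT values at 3 h include the WT IL-1b 3 h library.

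At 1 h the zinc finger messages were lower than at 0 h in every line. With library sizes scaled by edgeR's TMM factors, the summed level of the 242 members was 5644 to 6033 CPM in the 6 p53KO libraries at 0 h. At 1 h it was 5057 to 5348 CPM, and the ranges did not overlap. In WT the sums were 5413, 5423 and 5424 CPM at 0 h and 4587, 4808 and 4842 CPM at 1 h. At 3 h the scaled sums were 5725 to 6099 CPM in p53KO and 5387 to 5964 CPM in WT. In p53KO the return to the 0 h level depended on the scaling. As a share of unscaled counts, the members took 0.604 to 0.643% at 0 h, 0.513 to 0.537% at 1 h and 0.526 to 0.583% at 3 h in p53KO. By this share every p53KO library at 3 h stayed below those at 0 h. In WT the shares were 0.545 to 0.548% at 0 h, 0.429 to 0.456% at 1 h and 0.503 to 0.553% at 3 h. In bulk RNA a sum of this kind cannot tell fewer expressing cells from less RNA per cell.

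Levels, here and above except in the level rule, are CPM with library sizes scaled by edgeR's TMM factors. Changes were tested with edgeR's quasi-likelihood test, and their adjusted p is a Benjamini-Hochberg value over the 13851 genes tested. Adjusted p-values of genotype levels are over 12918 genes, and those of alternative settings are over the genes of that setting. Shares of all genes called are those of the main edgeR tests throughout. Counts from alternative settings have no share of all genes from the same setting beside them. Averaged over the 3 stimuli, 130 of 242 members fell at 1 h in p53KO cells and 14 rose, against 9.7% of all tested genes lower and 9.86% higher. In percent, 53.7% of members were lower and 5.79% higher. The median log2 change of the members was -0.28, with quartiles of -0.62 and -0.09, and 199 of 242 members were below 0. Of the members that fell, 82 fell by more than 0.5 and 17 by more than 1 on the log2 scale. In WT cells 113 members fell at 1 h and 7 rose, against 7.41% of all genes lower and 6.92% higher, and the median log2 change was -0.35 with 203 members below 0. Line by line, the median log2 change of the members at 1 h was -0.34 in WT, -0.31 in KO-1 and -0.29 in KO-2. The 2 genotypes used separate libraries throughout: 95 members were lower in both, which is 73.1% of the p53KO list and 84.1% of the WT list. Over all genes these shares were 49.4 and 64.7%.

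The fall at 1 h was seen after each stimulus. After IL-1b 78 members were lower and 3 higher in p53KO cells, where 3.16% of all genes were lower and 2.78% higher. After TNF 70 members were lower and 7 higher, against 2.8% and 3.05% of all genes. With LPS 61 were lower and 5 higher, against 2.52% and 2.79%. After all 3 stimuli 42 members (17.4%) were lower, against 1.26% of all genes, and these 42 were 53.8% of the IL-1b list, 60.0% of the TNF list and 68.9% of the LPS list. Over all genes these shares were 39.7, 44.8 and 49.9%. With no model at all, in 96 members (39.7%) every p53KO library at 1 h was below every p53KO library at 0 h, which held for 5.03% of all genes. The same held in WT for 134 members (55.4%) and 16.6% of all genes. The counts for single stimuli rest on 2 libraries a group: with single p53KO libraries left out they ran from 41 to 58 for IL-1b, 34 to 53 for TNF and 27 to 38 for LPS. The libraries that moved a count by over 1.5 times were KO-1 at 0 h and KO-2 at 1 h for IL-1b, these and KO-1 at 1 h for TNF, and each of the 4 for LPS. DESeq2's test gave 43, 31 and 29 lower members after IL-1b, TNF and LPS. The mean over the 3 stimuli kept 119 to 126 lower members.

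**Figure D1:**
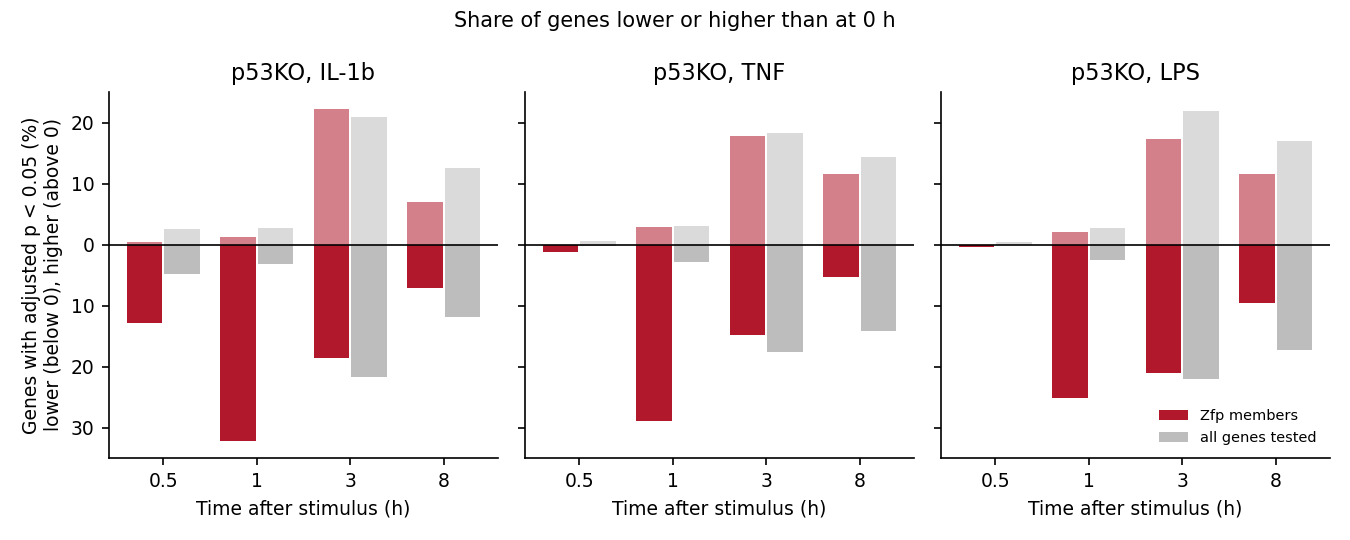
Share of genes (vertical axis, percent) with an adjusted p under 0.05 at each time after the stimulus (horizontal axis, hours) in p53KO cells, lower below the zero line and higher above it, for the Zfp members and for all genes tested, 1 panel per stimulus. At 1 h between 25.2 and 32.2% of members were lower after single stimuli, against 2.52 to 3.16% of all genes, and at 3 h the shares of members and of all genes were close.

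Zfp128, a KRAB protein with 7 fingers at chr7:13466526-13478771 in mm9, had the deepest fall of all members. In the p53KO libraries it was at 3.41, 4.77 and 5.66 CPM (lowest, median and highest of 6) at 0 h, and at 0.559, 0.878 and 1.55 CPM at 1 h. These were 30 to 56 counts per library at 0 h and 5 to 14 at 1 h. In WT after IL-1b, TNF and LPS its levels were 3.18, 2.48 and 2.72 CPM at 0 h and 0.796, 0.998 and 0.497 CPM at 1 h. In both genotypes every library at 1 h lay below every library at 0 h. The log2 change was -2.22 ± 0.20 (SE, adjusted p = 2.2e-09) in p53KO and -1.90 ± 0.35 (adjusted p = 0.00035) in WT. By 3 h it was back at 3.00 to 4.36 CPM in p53KO and 3.34 to 3.62 CPM in WT.

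Zfp60, a KRAB protein with 19 fingers at chr7:28516408-28538721, was among the better counted of the deep fallers, with 126 to 189 counts per p53KO library at 0 h and 47 to 66 at 1 h. In p53KO it was at 12.9, 15.7 and 17.8 CPM at 0 h, 10.2, 12.4 and 14.1 CPM at 0.5 h, 4.66, 5.46 and 6.01 CPM at 1 h and 14.8, 15.9 and 17.4 CPM at 3 h. The dip thus lay at 1 h, and at 3 h the 6 libraries were again inside the range of 0 h. In WT the levels after IL-1b, TNF and LPS went from 11.6, 12.9 and 12.7 CPM to 4.32, 5.16 and 3.38 CPM at 1 h and to 17.6, 18.3 and 19.6 CPM at 3 h. The log2 change at 1 h was -1.52 ± 0.08 in p53KO (adjusted p = 2e-13) and -1.55 ± 0.14 in WT (adjusted p = 4.5e-09). After IL-1b, TNF and LPS alone it was -1.53, -1.52 and -1.51 in p53KO.

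Zfp599, a KRAB protein with 10 fingers at chr9:22051874-22064339, was lower at 1 h and higher at 3 h than at 0 h. Its p53KO levels were 4.38, 5.87 and 6.64 CPM at 0 h, 0.932, 1.87 and 2.22 CPM at 1 h and 5.58, 8.76 and 11 CPM at 3 h. The libraries at 3 h and 0 h overlapped. Its log2 change was -1.69 ± 0.16 at 1 h (adjusted p = 1.1e-08) and 0.56 ± 0.13 at 3 h (adjusted p = 0.00053). Zfp791, a KRAB protein with 15 fingers, went from 2.37, 2.84 and 3.44 CPM to 0.592, 1.00 and 1.40 CPM at 1 h and to 3.94, 4.37 and 5.65 CPM at 3 h, with log2 changes of -1.61 ± 0.20 and 0.67 ± 0.15. Zfp760 and Zfp39, also KRAB proteins, changed by -1.44 ± 0.15 and -1.38 ± 0.11 on the log2 scale at 1 h. Zfp39 fell by 2.21 in WT, but the difference between the genotypes did not pass the test (adjusted p = 0.29). The deep fallers included 2 proteins in which no KRAB box was found, Zfp189 with 16 fingers (log2 change -1.29 ± 0.11) and Zfp329 with 12 (-1.22 ± 0.10). Zfp329 stood at 12.1, 12.8 and 15.4 CPM at 0 h and at 5.13, 5.85 and 6.01 CPM at 1 h in p53KO.

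**Figure D2:**
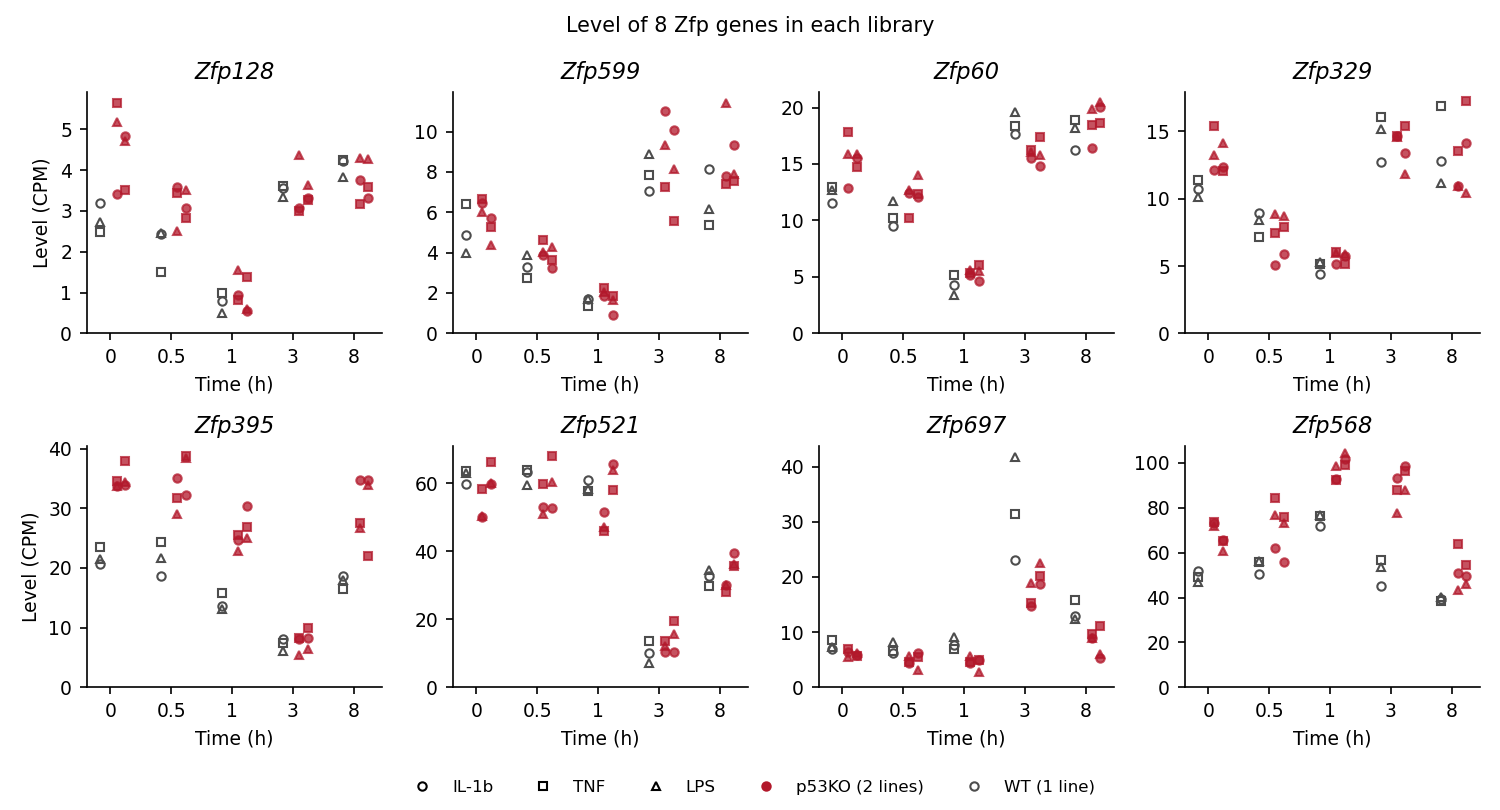
Level in CPM (vertical axes, starting at 0) of 8 members in each of the 45 libraries at 0, 0.5, 1, 3 and 8 h (horizontal axes), with WT and p53KO in different colours and the 3 stimuli as marker shapes. By their p53KO medians Zfp128, Zfp599, Zfp60 and Zfp329 were lowest at 1 h, Zfp395 and Zfp521 were lowest at 3 h, Zfp697 was highest at 3 h and Zfp568 was highest at 1 h.

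Short-lived messages often hold AU-rich elements in the 3′ UTR, the stretch after the stop codon, and the search here was for TATTTA followed by T or A. These letters stood in the 3′ UTR of 62 of 130 members lower at 1 h (47.7%) and in 50 of 111 other members (45%). Among 12917 tested genes with an annotated coding sequence the share was 41.6%. Median 3′ UTR lengths of these groups were 1389, 1125 and 1049 bases in the same order, and the shares were not adjusted for length. Of the 8 members that fell most at 1 h, the 4 in which TATTTAT was found are shown, because the letters mark where such an element could lie. The form ending in A was not looked for in this choice. Each is 25 bases, 5′ to 3′ in the sense of the message, from the transcripts of the reference annotation, with the 7 matched bases in capitals.
Zfp128, 1490 bases after the stop codon: gatttgcaaTATTTATattcagggt
Zfp599, 1203 bases after the stop codon: tctgcttttTATTTATttatttaat
Zfp60, 2856 bases after the stop codon: tctaatataTATTTATagatatgga
Zfp329, 974 bases after the stop codon: tttccttttTATTTATacagtttta
A match is only a run of letters, and whether these sites act in fibroblasts was not measured. Across the 241 members with a coding sequence, the change at 1 h had a Spearman rho of -0.02 with the number of ATTTA runs and of -0.03 with the length of the 3′ UTR.

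Start-site windows were taken from RefSeq's table for GRCm38.p6, which gives 250 bases before to 50 bases after each start and matched 196 members. ACTACAA, the core letters bound by Znf143, a promoter-binding activator whose mouse gene Zfp143 is itself a member, stood on either strand in 11 of 106 matched members lower at 1 h (10.4%). They stood in 15 of all 196 matched members (7.65%) and in 501 of 10340 tested genes (4.85%). The NF-kB motif stood in 6.60% of the matched members lower at 1 h and 12.6% of tested genes, and in 10.5% of the matched members higher at 3 h. The cAMP response letters TGACGTCA stood in 1.89% of members lower at 1 h and 3.51% of tested genes. For AP-1, TGACTCA or TGAGTCA, the shares were 3.77 and 4.66%, and for the SRF motif they were 0 and 1.62%. No match says only that the letters are not in this window. Of the 5 members with these letters that fell most, the 4 whose site lay 4 to 60 bases before the start are shown as 41 bases, on the strand of the gene, with ACTACAA or its reverse complement in capitals.
Zfp128, chr7:12881150-12881190, plus strand: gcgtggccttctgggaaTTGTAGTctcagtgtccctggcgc
Zfp93, chr7:24270334-24270374, plus strand: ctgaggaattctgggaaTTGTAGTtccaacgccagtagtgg
Zfp58, chr13:67500525-67500565, minus strand: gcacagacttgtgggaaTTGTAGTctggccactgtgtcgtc
Zfp606, chr7:12478264-12478304, plus strand: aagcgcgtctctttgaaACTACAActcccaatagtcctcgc
The 4 genes changed by -2.22 (Zfp128), -0.97 (Zfp93), -0.85 (Zfp58) and -0.78 (Zfp606) on the log2 scale at 1 h in p53KO. Zfp143 itself changed by -0.05 ± 0.06 in p53KO (adjusted p = 0.62) and by -0.40 ± 0.09 in WT (adjusted p = 0.0038).

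Members with and without a KRAB box both leaned down at 1 h in p53KO, where 9.7% of all tested genes were lower and 9.86% higher. Of 115 KRAB members 76 fell and 4 rose, with a median log2 change of -0.48, and of 126 members without the box 54 fell and 10 rose, with a median of -0.17. Among those without KRAB, the 63 with 8 or more fingers had 35 lower and 0 higher. The 63 with fewer fingers had 19 lower and 10 higher (30.2 and 15.9%), both above the shares of all genes. Of the 8 SCAN members 7 fell. On chromosome 7, 38 of 60 members fell, on chromosome 17 13 of 29, and on all other chromosomes 79 of 153. These classes also differed in level: the median member stood at 7.90 CPM with KRAB and at 23.3 CPM without it. No test of the difference between classes was made.

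Among members, low-level genes had the larger falls. Of 36 members with a mean under 5 CPM 24 fell, of 58 members at 5 to 10 CPM 39 fell, of 56 at 10 to 20 CPM 31 fell, and of 92 over 20 CPM 36 fell and 12 rose. In all tested genes the lower shares in the same level ranges were 7.03, 15.5, 16.6 and 8.30%, so the members' share was higher in each range. Across the 242 members the change at 1 h had a Spearman rho of 0.53 with the mean level, and across all genes 0.21. The rho with the number of fingers was -0.30 over 241 members, with the number of exons 0.32, with transcript length 0.00 and with GC content 0.06. These are descriptions across genes, which share libraries and are not independent. The level rule could be met through the 0 h libraries alone, so the counts are split by it as a description: of the 139 members at 5 CPM or more in every library 56 fell and 13 rose (median -0.17), and of the 103 others 74 fell and 1 rose (median -0.61). The 69 Zfp genes that were tested but missed the level rule had 33 lower and 0 higher, with a median of -0.65.

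**Figure D3:**
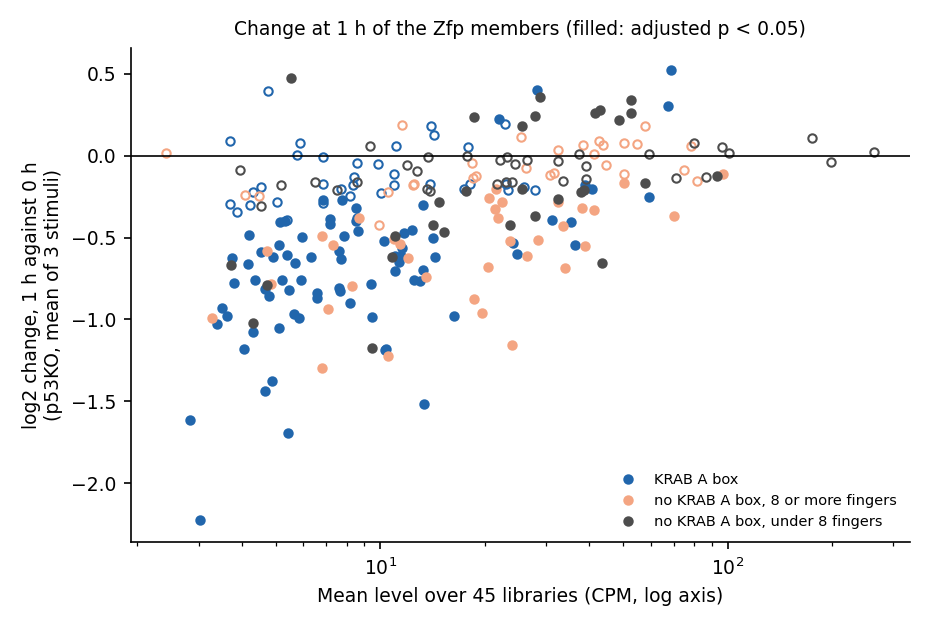
Log2 change at 1 h against 0 h in p53KO cells, mean of 3 stimuli (vertical axis), against the mean level over 45 libraries in CPM (horizontal log axis), 1 point per member, coloured by KRAB box, filled where the adjusted p was under 0.05. Most points lie below 0, the deepest falls are at low levels, and 12 of the 14 higher members lie at levels over 20 CPM.

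Related families were counted in the same way, and the shares of all genes to set beside them are 9.7% lower and 9.86% higher at 1 h and 32.2 and 30.4% at 3 h. Of 37 tested Zbtb genes, which pair zinc fingers with a BTB domain, 16 fell and 6 rose at 1 h, and at 3 h 8 were lower and 23 higher. Of 19 Zscan and Zkscan genes 10 fell and 1 rose, and of 50 genes with a KRAB box but another name 22 fell and 1 rose. Of the corepressors used by KRAB proteins, 32 were tested from a list of 33, and 5 of these fell at 1 h and 1 rose. The 5 were the histone methyltransferase Setdb1 (log2 change -0.18), the heterochromatin protein Cbx1 (-0.22), the histone chaperone Daxx (-0.24), and Fam208a and Mphosph8, partners in the HUSH silencing complex (-0.24 and -0.26). At 3 h 12 of the 32 were lower and 6 higher, among them Atf7ip, the partner of Setdb1, at -1.04 and Trim28 at -0.11.

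Few members rose at 1 h. Zfp568, a KRAB protein known for repressing a placental Igf2 transcript, rose the most in p53KO. Its p53KO levels were 60.9, 68.6 and 73.8 CPM at 0 h, 92.4, 98.8 and 104 CPM at 1 h, and 43.2, 50.4 and 63.7 CPM at 8 h. In WT they went from 51.7, 49.2 and 46.8 CPM to 71.8, 76.3 and 76.7 CPM at 1 h. The 1 h libraries lay above all 0 h libraries of the same genotype, with a log2 change of 0.52 ± 0.06 in p53KO (adjusted p = 6.9e-08) and 0.61 ± 0.08 in WT. Zfp948 rose by 0.40 ± 0.07 in p53KO and 0.84 ± 0.09 in WT. Zfp281, a transcription factor studied in embryonic stem cells, rose by 0.34 ± 0.06 at 1 h and 0.86 ± 0.06 at 3 h in p53KO. Zfp367 and Zfp9 rose by 0.36 ± 0.07 and 0.30 ± 0.05. Zfp653, which overlaps a gene on the other strand, was higher by 0.47 ± 0.14 (adjusted p = 0.016), a call lost with DESeq2's test (adjusted p = 0.097) and without each of 4 p53KO libraries (adjusted p up to 0.11).

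At 0.5 h the counts differed between stimuli. After IL-1b 31 members were lower and 1 higher, against 4.76 and 2.64% of all genes. After TNF 3 members were lower and 0 higher, against 0.144 and 0.606%, and after LPS 1 was lower and 0 higher, against 0.0939 and 0.433%. All 3 IL-1b libraries at 0.5 h were among the 4 with the most negative rho with length, and with each library's trend on length and GC content removed 15 members (6.2%) were lower after IL-1b. The 4.76% of all genes is from the fit without that correction and is not the share to set beside this count. With single p53KO libraries left out the count was 10 to 18, moved by each of the 4, and DESeq2's test gave 10. At an unadjusted p under 0.05 the counts were 77 members for IL-1b, 42 for TNF and 33 for LPS. Zfp866, a KRAB protein with 12 fingers, was lower after all 3 stimuli, and it is named after its values were seen. It was at 11.8, 13.7 and 18.2 CPM at 0 h and at 4.64, 6.49 and 8.35 CPM at 0.5 h in p53KO, and at 8.62, 10.3 and 11.1 CPM and 3.68, 5.07 and 5.26 CPM in WT. Its log2 change at 0.5 h was -1.33 ± 0.15 with IL-1b, -1.20 ± 0.15 with TNF and -0.98 ± 0.15 with LPS. The other members lower at 0.5 h after TNF were Zfp760 and Zfp329.

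At 3 h in p53KO cells members were lower and higher in about the shares of all genes. Averaged over stimuli, 78 members were lower and 69 higher in p53KO, against 32.2 and 30.4% of all genes, and the median log2 change was -0.03. After IL-1b 45 were lower and 54 higher (21.8 and 21.0% of all genes), after TNF 36 and 43 (17.6 and 18.4%), and after LPS 51 and 42 (22.1 and 21.9%). All 6 p53KO libraries at 3 h lay below all 6 at 0 h for 37 members (15.3%) and 18.7% of all genes. In WT this held for 43 members (17.8%) and 25.3% of all genes. These lower shares of members are not above those of all genes. In the other direction every WT library at 3 h lay above every WT library at 0 h for 88 members (36.4%), against 23.8% of all genes. The TNF counts were 22 to 28 lower and 28 to 40 higher with single libraries left out, and the libraries that moved them by over 1.5 times were KO-1 and KO-2 at 0 h and KO-2 at 3 h. DESeq2's test gave 28, 19 and 28 lower members after IL-1b, TNF and LPS.

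The deepest falls at 3 h were in genes other than those deepest at 1 h. Zfp395, at chr14:65977513-66017767, was at 33.7, 34.1 and 38 CPM at 0 h, 22.9, 25.2 and 30.4 CPM at 1 h, 5.38, 8.11 and 9.93 CPM at 3 h and 22.1, 30.7 and 34.8 CPM at 8 h in p53KO. In WT it went from 20.6, 23.5 and 21.5 CPM at 0 h to 8.04, 7.41 and 6.13 CPM at 3 h. The 3 h libraries lay below all others of their genotype at 0 h and 8 h. The log2 change at 3 h was -2.19 ± 0.10 in p53KO (adjusted p = 6e-16) and -1.61 ± 0.15 in WT, and 8 h stood 1.98 ± 0.10 above 3 h.

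Zfp521, a protein with 27 fingers that holds cells back from the fat cell fate, was still high at 1 h and low at 3 h. It was at 50.1, 59.1 and 66.1 CPM at 0 h, 45.9, 54.8 and 65.7 CPM at 1 h, 10.3, 12.8 and 19.6 CPM at 3 h and 28.2, 32.9 and 39.5 CPM at 8 h in p53KO. In WT it went from 59.8, 63.6 and 62.9 CPM to 10.0, 13.8 and 7.24 CPM at 3 h. The log2 change was -0.06 ± 0.09 at 1 h and -2.10 ± 0.12 at 3 h in p53KO (adjusted p = 4.4e-14), and -2.63 ± 0.17 at 3 h in WT. Its close relative Zfp423, which promotes the fat cell fate, was at 3.51, 3.82 and 4.93 CPM at 0 h and 0.593, 1.63 and 2.19 CPM at 3 h, on 5 to 19 counts per library at 3 h, with a log2 change of -1.31 ± 0.24 (adjusted p = 3.3e-05). Zfp467, a factor also studied in fat and bone precursor cells, was at 11.1, 11.6 and 14.4 CPM at 0 h and 3.14, 3.70 and 5.30 CPM at 3 h (-1.65 ± 0.13).

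Zfp362 fell from 40.5, 42.1 and 47.2 CPM to 16.8, 18 and 21.8 CPM at 3 h, a log2 change of -1.22 ± 0.09. The other deep falls at 3 h were in Zfp810 (-1.34 ± 0.17), Zfp688 (-1.17 ± 0.14), Zfp820 (-1.06 ± 0.16), Zfp41 (-1.06 ± 0.11) and Zfp30 (-0.97 ± 0.13). Zfp41 was as low at 1 h, with a change of -1.17 ± 0.11. Of the 10 members deepest at 3 h, 4 held a KRAB box: Zfp810, Zfp688, Zfp820 and Zfp30.

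The largest rise at 3 h was in Zfp697, at chr3:98186404-98235871. In p53KO it was at 5.46, 6.01 and 6.88 CPM at 0 h, 2.72, 4.77 and 5.73 CPM at 1 h and 14.7, 18.8 and 22.6 CPM at 3 h. In WT it went from 7.01, 8.49 and 7.26 CPM to 23.0, 31.3 and 41.8 CPM after IL-1b, TNF and LPS. The log2 change was 1.59 ± 0.14 in p53KO (adjusted p = 5.2e-10) and 2.04 ± 0.19 in WT. Zfp52, a KRAB protein with 14 fingers, rose from 13.3, 15.5 and 17.5 CPM to 35.1, 39.4 and 42.7 CPM (1.36 ± 0.08). Zfp469, whose human counterpart is mutated in brittle cornea syndrome, a disorder of collagen, rose by 1.26 ± 0.10, and Zfp593, a ribosome assembly factor, by 1.00 ± 0.08. Zfp429 rose by 0.97 ± 0.14.

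Zfp658, a KRAB protein with 21 fingers, was low at 1 h and high at 3 h. It was at 3.28, 4.88 and 5.66 CPM at 0 h, 2.05, 2.27 and 3.05 CPM at 1 h and 8.66, 10.7 and 12.3 CPM at 3 h in p53KO. The 3 sets of libraries did not overlap, with log2 changes of -0.99 ± 0.16 at 1 h and 1.16 ± 0.13 at 3 h. In WT the changes were -1.26 ± 0.26 and 0.87 ± 0.19.

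At 8 h fewer of the members than of all genes differed from 0 h. After IL-1b 17 members were lower and 17 higher, against 11.8 and 12.5% of all genes. After TNF 13 were lower and 28 higher (14.1 and 14.5%), and after LPS 23 and 28 (17.2 and 17%). With single libraries left out the lower counts ran from 4 to 12 after IL-1b, 7 to 8 after TNF and 10 to 17 after LPS, and the higher counts from 12 to 18, 7 to 25 and 16 to 21. The lower counts were moved by over 1.5 times by both 0 h libraries and KO-1 at 8 h for IL-1b, by each of the 4 for TNF, and by KO-1 at 0 h and at 8 h for LPS. The higher counts were so moved by KO-2 at 0 h and both 8 h libraries for TNF, and by KO-2 at 0 h and KO-1 at 8 h for LPS. Between 3 h and 8 h, averaged over stimuli, 58 members fell and 75 rose in p53KO, against 28 and 28.3% of all genes.

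The stimuli were compared by the size of their change at 3 h in p53KO. LPS differed from the mean of the 2 cytokines in 1 member, against 2.13% of all genes. That member was Zfp382, a KRAB protein with 9 fingers, which in KO-1 and KO-2 at 3 h was at 12.6 and 11.3 CPM after LPS, 7.04 and 6.99 CPM after IL-1b and 7.26 and 8.70 CPM after TNF. Its change after LPS was higher by 1.09 ± 0.22 on the log2 scale (adjusted p = 0.0038). The call was lost with DESeq2's test (adjusted p = 0.16) and with libraries thinned to equal depth (adjusted p = 0.58, difference 0.63). In WT at 3 h Zfp382 was at 6.40 CPM after LPS, 4.11 after IL-1b and 7.5 after TNF. Zfp365 and Zfp213 had differences of 0.73 ± 0.21 and 0.55 ± 0.18 that did not pass the test (adjusted p = 0.078 and 0.18), and Zfp664 one of -0.22 ± 0.08 (adjusted p = 0.25). With the 0 h libraries of all stimuli pooled, Zfp365 (adjusted p = 0.0069) and Zfp664 (adjusted p = 0.0032) passed. IL-1b against TNF gave 0 members by edgeR, against 0.116% of all genes, with 9 members at an unadjusted p under 0.05, and DESeq2 gave 0. The largest differences were in Zfp101 (-0.91 ± 0.28, adjusted p = 0.59) and Zfp428 (0.72 ± 0.24, adjusted p = 0.73).

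Whether the 2 genotypes changed alike was tested as the change in p53KO minus the change in WT. At 1 h the changes differed in 2 members, against 0.736% of all genes. They were Zfp770, which changed by -0.66 ± 0.10 in WT and -0.14 ± 0.07 in p53KO (difference 0.52 ± 0.12, adjusted p = 0.044), and Zfp503, a protein with no C2H2 finger of the pattern searched, at -1.10 ± 0.09 and -0.65 ± 0.06 (difference 0.45 ± 0.11, adjusted p = 0.045). Both calls were lost with DESeq2's test (adjusted p = 0.39 and 0.15) and with thinned counts (adjusted p = 0.22 and 0.068), and without most single p53KO libraries (adjusted p up to 0.10 for Zfp770 and 0.091 for Zfp503). Zfp62 differed the other way by -0.42 ± 0.11 and did not pass (adjusted p = 0.079).

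In WT at 3 h, 31 members were lower and 75 higher, against 22.5 and 22.3% of all genes, and the median log2 change was 0.15 in WT and -0.03 in p53KO. Without the WT IL-1b 3 h library, one of the 4 with the most negative rho with length, and with TNF and LPS averaged in both genotypes, 18 members were lower and 67 higher in WT. The changes differed between genotypes in 24 members, 13 with the lower change in p53KO and 11 with the higher, against 9.98% of all genes. Without that library they differed in 5 members (2.07%), and with DESeq2's test in 7. With length and GC offsets they differed in 37 members (15.3%), and with thinned counts in 13. Zfp367 and Zfp110 passed in both fits with and without that library. Zfp367 went from 27.7, 31.9 and 29.4 CPM at 0 h to 20.6, 20 and 19.5 CPM at 3 h in WT, and from 24.4, 26.3 and 28 CPM to 25, 31.2 and 34.0 CPM in p53KO. Its change was -0.56 ± 0.11 in WT and 0.18 ± 0.07 in p53KO, a difference of 0.74 ± 0.13 (adjusted p = 0.00053). Zfp110, a partner of the neurotrophin receptor p75, went from 37.6 to 39.3 CPM at 0 h to 38.6 to 42.7 CPM in WT, and from 36.8 to 43.8 CPM to 27.8 to 34.2 CPM in p53KO, a difference in change of -0.45 ± 0.09 (adjusted p = 0.0021). Zfp688 was at 4.06 to 6.30 CPM at 3 h in WT and 2.31 to 2.89 CPM in p53KO, with a difference in change of -1.05 ± 0.22 (adjusted p = 0.0035, 0.11 with thinned counts and 0.077 without the WT IL-1b 3 h library). Among the members lower at 3 h, 26 were so in both genotypes, which is 33.3% of the p53KO list and 83.9% of the WT list, and among the higher 50, which is 72.5 and 66.7%. Over all genes the shares were 56.5 and 80.7% for lower and 61.2 and 83.7% for higher genes. These WT lists include the WT IL-1b 3 h library.

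**Figure D4:**
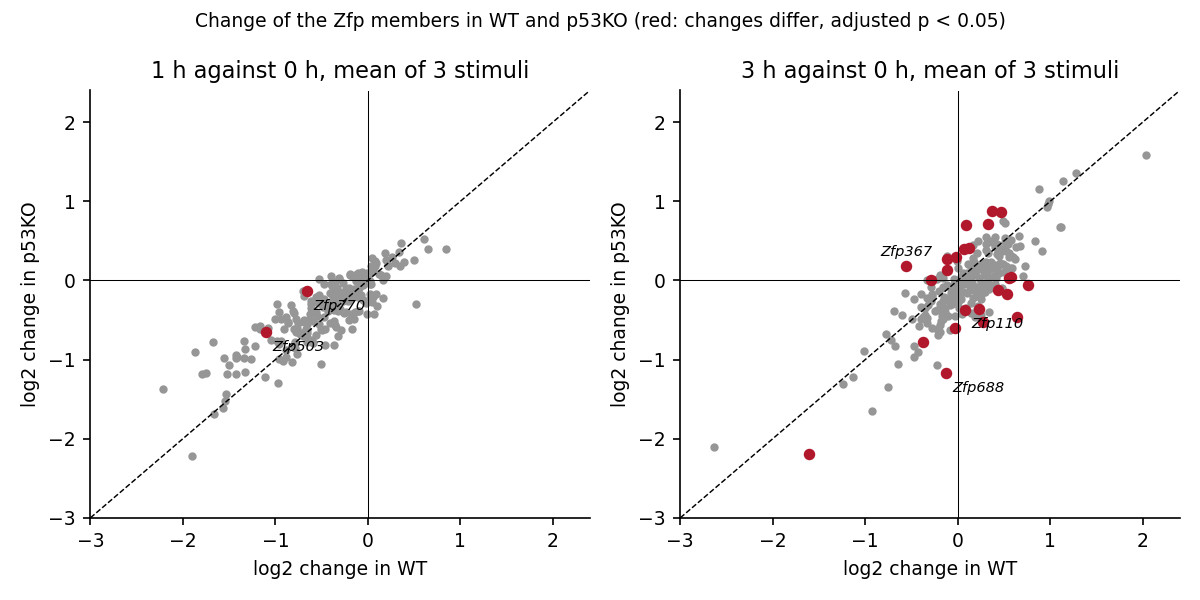
Log2 change from 0 h in WT (horizontal axis) and p53KO (vertical axis), mean of 3 stimuli, at 1 h (left) and 3 h (right), 1 point per member, with the line of equal change. Red points mark the 2 members at 1 h and the 24 at 3 h, with all libraries in the fit, whose changes differed between the genotypes, and at 1 h most points lie below 0 in both.

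For the level in each genotype, the 15 libraries of a line were added up, so that a line counts once, with 1 residual degree of freedom and a spread shared over 12918 genes. Of the members 20 were lower in p53KO and 46 higher, against 19.2 and 21.1% of all genes. Without the IL-1b 0.5 h and 3 h libraries 15 were lower and 44 higher, with DESeq2's test 10 and 30, and in the 0 h libraries alone 6 were lower. The deepest difference was in Zfp365, a known target gene of p53 that helps protect fragile sites in the genome. It was at 29.5 CPM in WT, 11.9 CPM in KO-1 and 12.1 CPM in KO-2, a log2 difference of -1.29 ± 0.06 (edgeR adjusted p = 1.2e-05). At 0 h it was at 32.2 to 33.2 CPM in the WT libraries and 10.5 to 13.3 CPM in the p53KO libraries.

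Zfp697 was at 13.9 CPM in WT, 7.93 in KO-1 and 7.92 in KO-2 (-0.81 ± 0.08), and Zfp52 at 34.6, 22.5 and 20.5 CPM (-0.69 ± 0.07). Zfp958 was at 8.49, 5.68 and 5.46 CPM (-0.61 ± 0.11), and Zfp809, a KRAB protein known for silencing retroviruses, at 10.5, 7.5 and 7.41 CPM (-0.50 ± 0.09). Zfp593 was at 22.9, 16.6 and 16.8 CPM (-0.45 ± 0.06). In the 0 h libraries alone the differences of Zfp697 (-0.31, adjusted p = 0.20), Zfp958 (-0.24, adjusted p = 0.36) and Zfp809 (-0.36, adjusted p = 0.084) did not pass.

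Higher in p53KO were Zfp423, at 1.16 CPM in WT, 2.86 in KO-1 and 3.36 in KO-2 (1.42 ± 0.21, adjusted p = 0.0016), and Zfp791, at 1.41, 3.51 and 3.46 CPM (1.31 ± 0.18). Zfp286 was at 5.5, 10.0 and 10.4 CPM (0.89 ± 0.10), and Zfp184 at 2.65, 5.13 and 4.65 CPM (0.89 ± 0.15). Zfp580 was at 4.37, 7.13 and 8.01 CPM (0.79 ± 0.13), and Zfp395 at 16.3, 26.2 and 29 CPM (0.76 ± 0.08). Both p53KO lines stood above WT in each of these 6 members, which the choice of them required. Of 115 KRAB members 10 were lower and 14 higher, and of 126 without KRAB 9 were lower and 32 higher, against 19.2 and 21.1% of all genes. Across members the genotype difference had a Spearman rho of 0.31 with GC content, and across all genes of 0.07. Of the 32 corepressors 0 were lower and 15 higher in p53KO by edgeR, to be read against the same shares of all genes, among them Dnmt3a (0.74), Daxx (0.47), Chd3 (0.44) and Trim28 (0.19).

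**Figure D5:**
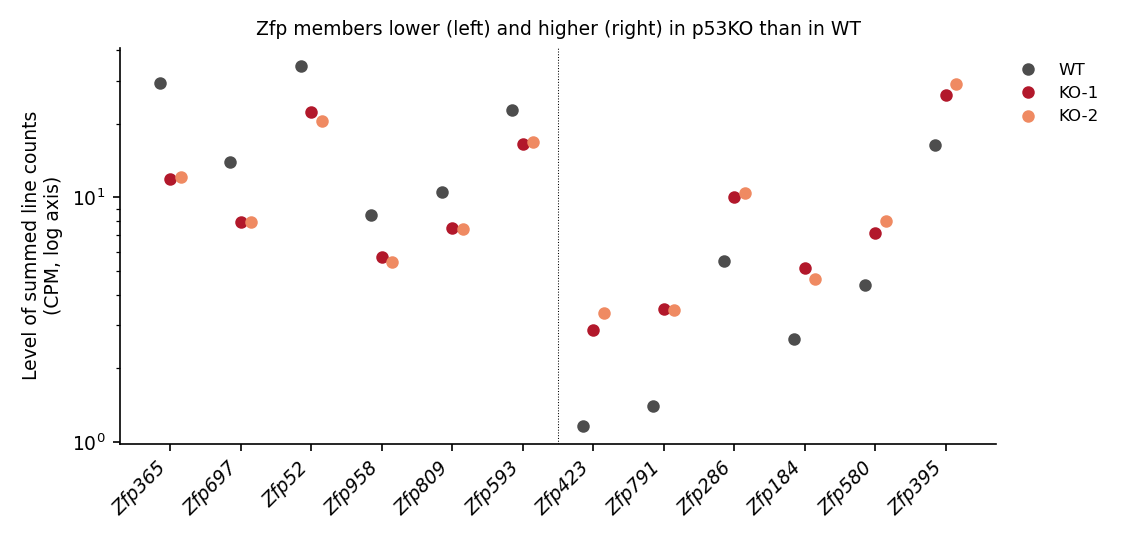
Level of the summed counts of WT, KO-1 and KO-2 (vertical log axis, CPM) for the 6 members most below WT in p53KO (left of the line) and the 6 most above it (right of the line). The choice of these 12 required both p53KO lines to lie on the same side of WT. Zfp365 is at 29.5 CPM in WT against 11.9 and 12.1 CPM in the p53KO lines.

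Of 21 members with a well-studied role, 5 fell and 3 rose at 1 h in p53KO, against 9.7 and 9.86% of all genes, and 4 fell and 12 rose at 3 h, against 32.2 and 30.4%. In WT the counts were 5 and 1 at 1 h, against 7.41 and 6.92% of all genes, and 4 and 6 at 3 h, against 22.5 and 22.3%. Of the 5 falls at 1 h in p53KO, those of Zfp451 and Zfp809 were lost with DESeq2's test (adjusted p = 0.12 and 0.18) and without single p53KO libraries, 10 of them for Zfp451 (adjusted p up to 0.22) and 6 for Zfp809 (up to 0.11). Zfp217, a transcription factor amplified in breast cancer, was at 27.6, 29.6 and 32.6 CPM at 0 h and 17.3, 21.8 and 23.7 CPM at 1 h (-0.51 ± 0.07). Zfp746, a repressor of PGC-1a, fell by 0.27 at 1 h and by 0.61 in WT, and the p53KO call was lost with thinned counts (adjusted p = 0.078). Zfp335, which works with histone H3 lysine 4 methyltransferases and overlaps a gene on the other strand, went from 32, 33.8 and 36.5 CPM to 50.0, 56.7 and 58.6 CPM at 3 h (0.71 ± 0.05). Zfp451, a SUMO ligase, rose by 0.54 ± 0.06 at 3 h, and Zfp622, a factor in ribosome assembly, by 0.28 ± 0.05 at 1 h and 0.42 ± 0.05 at 3 h. Zfp384, a nuclear matrix factor of bone cells, and Zfp703, a breast cancer gene, rose by 0.30 ± 0.06 and 0.24 ± 0.06 at 3 h. Zfp598, a ubiquitin ligase that marks collided ribosomes, and Zfp91, another ubiquitin ligase, rose by 0.17 ± 0.06 and 0.13 ± 0.04, and the call of Zfp598 was lost without each of 4 p53KO libraries (adjusted p up to 0.065). Besides Zfp521 and Zfp423, the falls at 3 h were small: -0.13 ± 0.05 in Zfp106, which overlaps a gene on the other strand, and -0.22 ± 0.08 in Zfp292. Both calls were lost with DESeq2's test (adjusted p = 0.070 and 0.051) and without single p53KO libraries, 6 of them for Zfp106 (adjusted p up to 0.16) and 3 for Zfp292 (up to 0.17). Zfp445, a KRAB protein that maintains imprints, changed little, by -0.18 ± 0.06 at 1 h and 0.14 ± 0.06 at 3 h, and both calls were lost with DESeq2's test (adjusted p = 0.14 and 0.090). Zfp148, a widely expressed factor of GC-rich promoters, was at 98.6 to 112 CPM at 0 h, 99.5 to 111 CPM at 1 h and 91.8 to 110 CPM at 3 h in p53KO and passed the test at neither time. Zfp207, a factor of the mitotic spindle, was lower in p53KO than in WT by 0.22 ± 0.06 on the log2 scale (adjusted p = 0.022, and 0.061 with length and GC offsets). In all, 3 of the 21 were lower and 5 higher in p53KO, against 19.2 and 21.1% of all genes, and the calls of Zfp326 and Zfp292 among them were lost with DESeq2's test (adjusted p = 0.20 and 0.098), and those of Zfp106 and Zfp292 with length and GC offsets (adjusted p = 0.28 and 0.13).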

How the data were processed

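Polyadenylated RNA of 45 fibroblast libraries was sequenced as paired-end reads of 50 bp from a stranded kit, per the labels' protocols. The authors deposited raw read counts per Ensembl gene, made with STAR, featureCounts and mm9 per the submitters' processing notes, which also name DESeq; versions, annotation release and strand setting are not given in the sources used here. Rows that name no gene (5, holding 24.7% of all counts) were left out.

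Counts were fitted with edgeR 4.0.16 in R 4.3.3 (quasi-likelihood test, 1 mean per genotype, stimulus and time, TMM factors 0.889 to 1.07, genes at 1 CPM or more in at least 2 libraries, prior count 2). Averages over stimuli, genotype differences and differences between stimuli are contrasts of that fit. Genotype levels were tested on counts summed by line. The threshold was an adjusted p of 0.05. Simulated data were used for p53KO 1 h against 0 h after TNF and LPS alone and for the genotype test on line sums. The averages over stimuli, the WT changes and the differences in change between genotypes or stimuli were not run on simulated data. Levels are CPM with TMM-scaled library sizes. DESeq2 1.42.0, other filters and scalings, pooled 0 h libraries, thinned counts, length and GC offsets and left-out libraries were alternatives.

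Domain classes were read from translated GENCODE M21 coding sequences, matched by Ensembl identifier, since the protein table planned for them was not used here: a KRAB A box needed 12 of 18 positions within the first 300 residues. Gene coordinates are those of the deposited table. Same-numbered p53KO libraries carry 1 replicate name in the labels across stimuli and times and were taken as 1 line, so the numbers pair them. Their deviations from the group means had a median correlation of 0.191 (-0.169 to 0.504) over 105 pairs of groups, 73 of them over 0.1.

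Named members are those with the largest changes past the threshold at 1 h (8 falls, 6 rises) and 3 h (10 falls, 6 rises) and in both p53KO lines, the 12 largest genotype differences, the 6 smallest p between stimuli, the 6 smallest p for genotype differences in change, the members beside the level threshold and 21 with a well-studied role. The 12 genotype differences also had to have both p53KO lines on the same side of WT. The members and lists were chosen with earlier results of these data known.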

Additional observations from a re-analysis of the deposited data

Results flagged for a closer look

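The members below were singled out from the named members because the change after the stimulus differed between p53KO and WT, or between stimuli, by a test of the difference itself. Of all members called at 3 h, 13 had the lower change in p53KO and 11 the higher, so the list is a part. Each value is a log2 difference with its edgeR quasi-likelihood, Benjamini-Hochberg adjusted p over 13851 genes. The calls of Zfp503 and Zfp770 at 1 h, and of Zfp382 between stimuli, were lost with DESeq2's test and with thinned counts. At 1 h the change in p53KO minus that in WT was 0.45 in Zfp503 (adjusted p = 0.045) and 0.52 in Zfp770 (adjusted p = 0.044).

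At 3 h the change in p53KO was above that in WT by 0.74 in Zfp367 (adjusted p = 0.00053), 0.61 in Zfp382 (0.042), 0.39 in Zfp281 (0.019), 0.39 in Zfp335 (0.009), 0.33 in Zfp384 (0.038), 0.33 in Zfp568 (0.039) and 0.24 in the ubiquitin ligase gene Zfp91 (0.042). It was below that in WT, at -0.45 in Zfp110 (0.0021), -0.53 in Zfp60 (0.0097), -0.58 in Zfp395 (0.046) and -1.05 in Zfp688 (0.0035). Among all 242 members these calls number 24 with all libraries and 5 without the WT IL-1b 3 h library. The call of Zfp688 was lost without that library and with thinned counts. Of the 3 h calls listed here, only those of Zfp367, Zfp110 and Zfp688 were followed gene by gene in the alternative settings.

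Between stimuli at 3 h in p53KO, Zfp382 changed more after LPS than after the 2 cytokines, by 1.09 (adjusted p = 0.0038).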

How the results depend on the processing

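WT is 1 line with 1 library per stimulus and time, single stimuli rest on 2 p53KO libraries a group, and members under 5 CPM had few counts at 1 h. Of 74 named values past the threshold 54 passed in every setting tried, and 20 missed it in at least 1. None of the 80 named values changed direction. Many of them were chosen for large changes with both p53KO lines agreeing in sign, so a change of direction was unlikely from the start. A share of members called has no direction, so this check cannot apply to the shares, and shares that moved in size are given below. The calls lost most often were those of Zfp445, Zfp451, Zfp503, Zfp106 and Zfp770.

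Shares below are percent of the 242 members past an adjusted p of 0.05, and the cause of each move was not tested unless stated. With DESeq2's test the share lower after IL-1b was 4.13% at 0.5 h, 17.8% at 1 h, 11.6% at 3 h and 1.65% at 8 h, and the share higher 0%, 0.413% and, at 8 h, 4.13%. After TNF 12.8% were lower and 0.413% higher at 1 h, 7.85% lower at 3 h, and 2.48% lower and 4.13% higher at 8 h. After LPS 12% were lower and 0.826% higher at 1 h, 11.6% lower at 3 h and 2.48% lower at 8 h. The share higher at 1 h was 1.24% in WT and 3.72% in the p53KO mean. The changes differed between genotypes in 0% at 1 h and 2.89% at 3 h, LPS differed from the cytokines in 0%, and 4.13% were lower and 12.4% higher in p53KO than in WT.

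With counts thinned to the smallest library, which lowers the depth, 8.26% were lower and 0% higher after IL-1b at 0.5 h, 19.8% and 0.413% at 1 h, and 2.89% lower at 8 h. At 1 h 16.9% were lower and 0.413% higher after TNF, 14.5% and 1.24% after LPS, and 1.24% higher in WT. The genotype changes differed in 0.413% at 1 h and 5.37% at 3 h, and LPS from the cytokines in 0%.

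With the 0 h libraries of all stimuli pooled, which adds 0 h libraries to each comparison, the shares after IL-1b were 27.3% lower and 1.65% higher at 0.5 h, 2.48% higher at 1 h, and 12.8% lower and 16.5% higher at 8 h. After TNF they were 5.37% lower at 0.5 h, 44.2% lower and 4.55% higher at 1 h, and 8.26% lower and 19.0% higher at 8 h. After LPS they were 2.89% lower at 0.5 h, 3.31% higher at 1 h and 14.5% lower at 8 h. LPS then differed from the cytokines in 2.89% and IL-1b from TNF in 0.826%.

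With length and GC offsets 6.2% were lower and 0.826% higher after IL-1b at 0.5 h, 2.07% lower after TNF and 1.24% after LPS, and the genotype changes at 3 h differed in 15.3%. With no filter 0.826% were higher after IL-1b and 1.24% lower after LPS at 0.5 h, and LPS differed from the cytokines in 0.826%. With p53KO libraries alone 0.826% were lower after LPS at 0.5 h. The genotype comparison gave 2.48% lower in the 0 h libraries alone. It gave 18.2% lower and 43.8% higher when the libraries of a line were treated as separate samples.

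With the p53KO line as a replicate block 10.7% were higher after IL-1b at 8 h, 2.48% lower after TNF at 0.5 h and 0.826% lower after LPS at 0.5 h, and no other share moved by over 1.5 times. With the replicate block and length and GC offsets the shares after IL-1b were 1.65% higher at 0.5 h and 11.2% lower and 15.3% higher at 8 h. Those after TNF were 2.89% lower at 0.5 h and 4.55% higher at 1 h, those after LPS 1.24% lower at 0.5 h and 3.31% higher at 1 h, and LPS differed from the cytokines in 0.826%.

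Leaving out single libraries gave these ranges. The lower shares after IL-1b were 4.13 to 7.44% at 0.5 h, 16.9 to 24% at 1 h and 1.65 to 4.96% at 8 h, and the higher shares 0 to 0.413% at 0.5 h and 0.413 to 0.826% at 1 h. After TNF the lower shares were 0.413 to 1.24% at 0.5 h, 14 to 21.9% at 1 h, 9.09 to 11.6% at 3 h and 2.89 to 3.31% at 8 h, and the higher shares 0 to 1.65% at 1 h, 11.6 to 16.5% at 3 h and 2.89 to 10.3% at 8 h. After LPS the lower shares were 11.2 to 15.7% at 1 h and 4.13 to 7.02% at 8 h, and the higher shares 0.413 to 0.826% at 1 h and 6.61 to 8.68% at 8 h. The p53KO mean kept 49.2 to 52.1% lower at 1 h. The genotype changes differed in 0 to 0.826% at 1 h and 2.07 to 12.4% at 3 h. The lowest of these, 2.07%, and a WT share of 7.44% lower at 3 h came without the WT IL-1b 3 h library, an alternative chosen after seeing the data. So was leaving the IL-1b 0.5 h and 3 h libraries out of the line totals, which moved neither genotype share by over 1.5 times.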
